A study of Mus musculus with 2 samples.

Results

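Heme synthesis enzymes and heme oxygenase were examined in mouse cells labelled megakaryocyte-erythroid progenitors (MEP), progenitors of the blood whose descendants are red cells and platelet-forming megakaryocytes. The set holds 9 of 43346 annotated genes, listed by name: the synthesis enzymes Alas1, Alas2, Alad, Uros, Urod, Cpox, Ppox and Fech, and the heme-degrading enzyme Hmox1. All 9 were found by gene identifier. The enzyme step between Alad and Uros is not analysed here. RNA-seq of polyadenylated RNA was made from primary cells of adult female C57BL/6J mice, 5 weeks old, whose labels call them CD34- and name lineages and CD16/32. There was 1 group with 2 biological replicates that share a donor identifier, which leaves no conditions to compare; the sources used here do not say whether the replicates were separate animals. Estimated counts summed to 79539457 in replicate 1 and 65305321 in replicate 2. With 2 libraries an exact two-sided sign test cannot go below p = 0.5, so levels are given as measured, with no test.

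Heme is an iron-bearing ring that fills hemoglobin in red cells and serves cytochromes and catalase in every cell. Its synthesis starts in the mitochondrion, where an aminolevulinate synthase joins glycine to succinyl-CoA. Alas1 is the form used in most tissues and Alas2 the form of maturing red cells. The next steps, Alad to Urod, run in the cytosol, and Cpox, Ppox and Fech finish the ring and insert iron at the mitochondrion. Hmox1 opens the ring again and releases iron, carbon monoxide and biliverdin.

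The enzymes after the first step were expressed in these cells, while the erythroid form of the first enzyme was almost absent. Levels are TPM, transcripts per 1000000 scaled for length, and a gene counted as detected at a TPM of 1 or more in both libraries. Of the 9 genes, 8 were detected, and Alas2 was the exception. The median of the 9 levels was 25.0 TPM in replicate 1 and 28.7 in replicate 2 (26.9 ± 2.58, SD, n = 2). Over all 21474 protein-coding genes the median was 0.67 and 0.75, and over the 10061 detected ones 15.9 and 16.9. The summed TPM of the set was 419 and 382, of which Alas1 held 38.5% and 21.2%. The cells carried far more RNA of granulocyte and monocyte progenitor markers, 31217 and 17144 TPM summed over 8 genes, than of early erythroid markers, 566 and 705 over 8, or megakaryocyte markers, 246 and 398 over 11. Late erythroid markers summed to 1184 and 2528 over 13. Mpo, Prtn3 and Elane held most of the granulocyte and monocyte sum. In that list Ms4a3 (44.7 and 26.3) and Csf1r (27.3 and 16.4) were below the early erythroid Klf1 (123 and 124). The list medians were 823 and 465, against 63.6 and 85.3 for early erythroid markers. The levels below are therefore those of the libraries labelled MEP. Bulk RNA cannot tell fewer cells that express a gene from less RNA per cell.

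**Figure D1:**
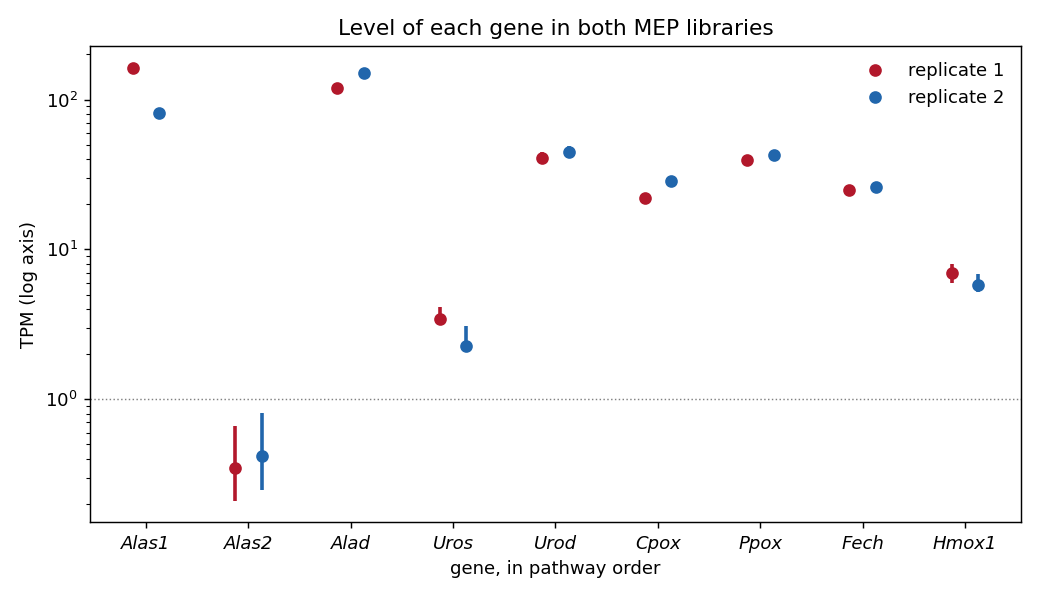
TPM of each gene (log axis) in pathway order, with replicate 1 in red, replicate 2 in blue, vertical bars for the authors' TPM interval within each library (its level is not stated) and a dotted line at the detection threshold of 1. Alad and Alas1 sit highest, and Alas2 is the only gene under the line, at 0.35 and 0.42.

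Alas1 supplied nearly all aminolevulinate synthase mRNA. Alas1 (ENSMUSG00000032786.10, chromosome 9, 106233455 to 106248654, minus strand) was at 161 TPM in replicate 1 and 81.1 in replicate 2, or 121 ± 56.8 (SD, n = 2). Its mean ranked at percentile 94.3 of protein-coding genes. Alas2 (ENSMUSG00000025270.9, chromosome X, 150547375 to 150570638, plus strand) was at 0.35 and 0.42, or 0.385 ± 0.0495 (SD, n = 2). Alas1 was thus 461-fold above Alas2 in replicate 1 and 193-fold above it in replicate 2. The log2 ratio was 8.18 ± 0.88 (SD, n = 2), with separate TPM intervals in each library.

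The Alas2 signal rested on very few reads. It came from 18 estimated counts in replicate 1 and 17 in replicate 2. These are 0.226 counts per 1000000 (CPM; exact Poisson 95% interval 0.134 to 0.358) and 0.260 CPM (0.152 to 0.417), where the intervals cover counting error only. The short processed transcript Alas2-204, which is 569 bases long and annotated as non-coding, took 7.43 and 7.15 of these counts. The rest was placed on a different coding transcript in each library, on Alas2-201 in replicate 1 and on Alas2-202 in replicate 2. Alas2 also shares 311 exon bases with Apex2, a DNA repair gene on the opposite strand that was at 1.44 and 0.83 TPM. The sources used here do not say whether reads were assigned by strand, so Apex2 reads among the Alas2 counts cannot be told apart.

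Both coding Alas2 transcripts hold the iron-responsive element, a hairpin in the 5′ untranslated region through which iron controls translation. The 25 bases around its loop, from the GENCODE M21 sequence of Alas2-201 at chrX:150547460-150547484 (GRCm38, plus strand), are shown because this element sets Alas2 apart from Alas1; capitals mark the loop.
Alas2 iron-responsive element: ggttcgtcctCAGTGCagggcaaca
The proteins that bind it are encoded by Aco1 and Ireb2. Aco1 was at 4.25 and 4.4 TPM and Ireb2 at 1.44 and 1.26, a log2 ratio of 1.68 ± 0.17 (SD, n = 2), with Aco1 above Ireb2 in both libraries. The mRNAs of both binding proteins were thus detected, while that of Alas2 was under the threshold.

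The region just upstream of Alas2 was read because the mRNAs of 2 erythroid factors, Gata1 and Klf1, were present. Gata1 was at 28.5 TPM in replicate 1 and 45.8 in replicate 2, and Klf1 at 123 and 124. RefSeq promoter windows (GRCm38.p6) of 250 bases before a start site were found for 7 of the 9 genes, in 10 windows; Fech and Hmox1 had no entry. The GATA motif AGATAA, searched on both strands, was in 1 of the 10 windows, that of Alas2, and in 9.99% of all 32851 windows. The match began 86 bases before the RefSeq start. AGATAA lies on the strand opposite to the gene, so the plus strand printed below reads TTATCT there. The CACCC-type motif CCNCACCC, also searched on both strands, was in 3 of the 10 windows and in 14.9% of all. Those 3 were the only Alas2 window, with 2 overlapping matches, and both Alas1 windows. The 208 bases of the Alas2 window that lie before its first annotated exon, chrX:150547167-150547374 (plus strand), are printed with the GATA match in capitals. The CCNCACCC matches lie beyond them, before the RefSeq start but inside the annotated first exon of Alas2-201.
Alas2 upstream region: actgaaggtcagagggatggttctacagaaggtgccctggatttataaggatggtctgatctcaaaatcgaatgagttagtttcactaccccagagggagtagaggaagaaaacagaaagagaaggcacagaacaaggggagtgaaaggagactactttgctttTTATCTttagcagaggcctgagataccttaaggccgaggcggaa
A match describes the letters and does not show that a factor binds there.

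Transcripts annotated as coding held the smaller part of the Alas1 level. The most abundant one by TPM was Alas1-208, a fragment of 794 bases annotated for nonsense-mediated decay, the pathway that destroys mRNAs with an early stop codon. It held 35.4% of Alas1 TPM in replicate 1 and 40.4% in replicate 2. The processed transcript Alas1-206 (1905 bases) held 27.5% and 24.1%, and the coding transcript Alas1-201 (2129 bases) 25.7% and 27.2%. Coding transcripts in all held 32.0% and 34.0%, which is 51.6 and 27.6 TPM. Alas1-208 shares 688 of its bases with coding transcripts and has 106 that no coding transcript holds, so most of its sequence is also in coding transcripts. By estimated counts, which are not divided by length, it held only 16.1% and 18.4%, while coding transcripts held 47.6% and 51.1%.

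Alad, the cytosolic enzyme that joins aminolevulinate molecules into a pyrrole ring, had the highest mean of the set. Alad (ENSMUSG00000028393.6, chromosome 4, 62509169 to 62519918, minus strand) was at 119.5 TPM in replicate 1 and 150.05 in replicate 2, or 135 ± 21.6 (SD, n = 2). The coding transcript Alad-201 held 95.6% and 94.7% of it. Alad and Alas1 had no common order, since Alas1 was higher in replicate 1 and Alad in replicate 2. Over coding transcripts alone Alad was higher in both, by 2.30-fold and 5.42-fold.

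Uros, which closes the tetrapyrrole ring in the orientation heme requires, was the lowest detected gene. Uros (ENSMUSG00000030979.8, chromosome 7, 133686243 to 133710072, minus strand) was at 3.43 TPM in replicate 1 and 2.25 in replicate 2, or 2.84 ± 0.834 (SD, n = 2), from 342 and 170 counts. Its leading transcript was the coding Uros-204, with 63.2% and 64.0% of the TPM. The coding Uros-201 held 12.7% and 28.6%, and a retained-intron form, Uros-206, held 16.0% in replicate 1 and 0 in replicate 2. Without Uros-206 the coding level was 2.89 and 2.25.

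Urod, which trims the side chains of the ring, had a gene level that came mostly from a transcript with a retained intron. Urod (ENSMUSG00000028684.10, chromosome 4, 116989965 to 116994413, minus strand) was at 40.9 TPM in replicate 1 and 44.8 in replicate 2, or 42.8 ± 2.75 (SD, n = 2). Urod-209, 598 bases long, held 85.2% and 82.8% of this. The coding transcript Urod-201 (1489 bases) held 8.21% and 9.58%. All coding transcripts together gave 4.51 and 4.29 TPM, or 4.40 ± 0.156 (SD, n = 2). By estimated counts Urod-209 held 73.1% and 69.4%, so it led on either scale.

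What sets the sequence of Urod-209 apart from the coding forms is its start. The transcript begins inside an intron of the coding forms, with 128 bases that no coding Urod transcript holds, and runs on through 470 bases of shared exons. The first 150 bases, chr4:116991737-116991886 (GRCm38, minus strand, GENCODE M21), are printed because they hold all of those 128 bases. Other non-coding Urod transcripts were not compared. Lower case marks the intronic bases and capitals the start of the shared exon.
Urod-209 start: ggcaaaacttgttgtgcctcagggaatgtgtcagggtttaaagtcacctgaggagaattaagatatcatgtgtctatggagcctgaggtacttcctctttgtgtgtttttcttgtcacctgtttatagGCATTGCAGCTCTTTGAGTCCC
Reads in the shared part fit a coding transcript as well, and how many reads fell in the printed intronic bases was not tested, since the tables give no position within a transcript. The gene's effective length, the length the level is divided by, was 533 bases in replicate 1 and 541 in replicate 2. Counts not divided by length put Urod at 18.2 and 19.6 CPM, below Ppox at 51.7 and 51.5, although the TPM intervals of the 2 genes overlapped in each library.

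**Figure D2:**
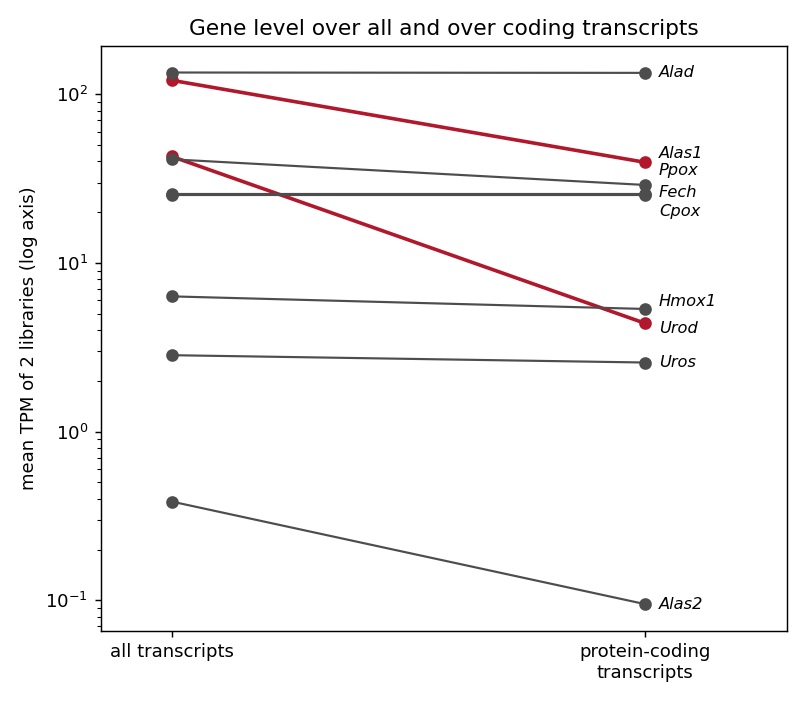
Mean TPM of 2 libraries (log axis) for each gene over all its transcripts (left) and over protein-coding transcripts alone (right), with Alas1 and Urod in red. Urod drops from 42.8 to 4.40 and Alas1 from 121 to 39.6, while Alad, Cpox and Fech stay level.

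The other detected genes of the set had mostly coding RNA. Among 7401 protein-coding genes at 5 TPM or more in both libraries, coding transcripts held a median of 98.4% of the TPM, with quartiles of 59.6% and 100%. Only 5.45% of those genes had a lower coding share than Urod, and 15.6% a lower share than Alas1. Alas2 stood at 24.4% and 25.1% coding, on its few counts. Cpox and Fech each have 1 annotated transcript in the tables and were fully coding.

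**Figure D3:**
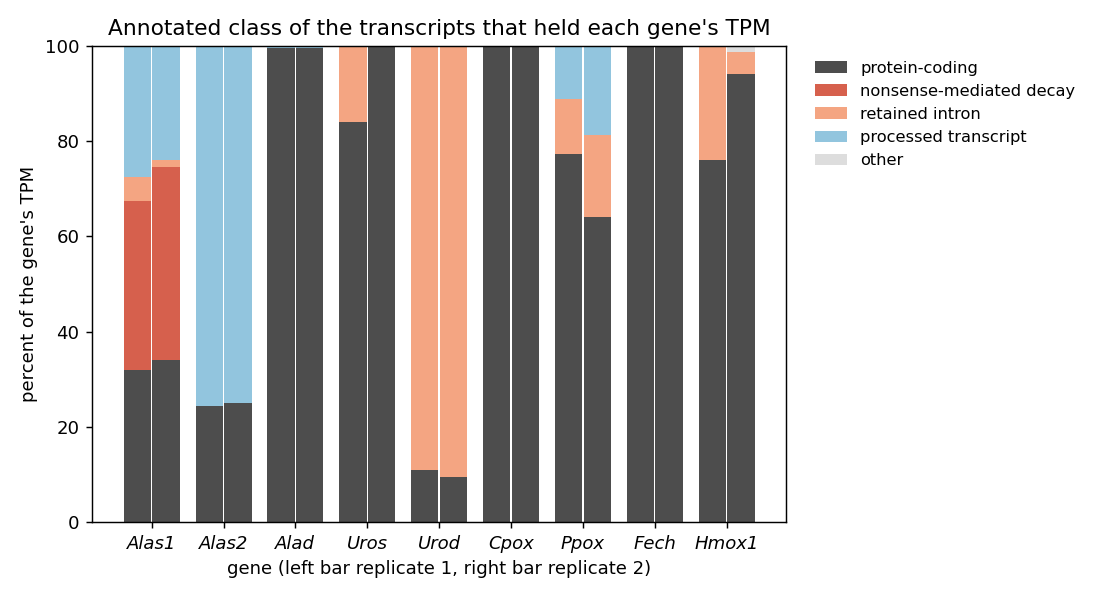
Percent of each gene's TPM by the annotated class of the transcript that held it, with replicate 1 as the left bar and replicate 2 as the right. Retained-intron transcripts make up 89.0% and 90.4% of Urod, and the coding part of Alas1 is 32.0% and 34.0%.

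Cpox and Ppox carry out the oxidations that precede iron insertion. Cpox (ENSMUSG00000022742.5, chromosome 16, 58670292 to 58717636, plus strand) was at 21.9 TPM in replicate 1 and 28.7 in replicate 2, or 25.3 ± 4.82 (SD, n = 2). Ppox (ENSMUSG00000062729.7, chromosome 1, 171275990 to 171281186, minus strand) was at 39.7 and 42.7, or 41.2 ± 2.11 (SD, n = 2). The coding Ppox-201 held 77.4% and 63.7% of the Ppox level, and the processed Ppox-204, 420 bases long, 11.1% and 18.6%. Ppox shares 791 exon bases with B4galt3, a galactosyltransferase gene on the opposite strand that was at 71.2 and 71.5 TPM. By the GENCODE M21 coordinates B4galt3 ends at 171276896. Of the Ppox transcripts only the retained-intron Ppox-207 reaches it, with 4.23% and 6.46% of the Ppox TPM. By estimated counts, which are not divided by length, Ppox-207 held 11.5% and 18.5%. Ppox-201 and Ppox-204 lie wholly past that end. Reads in the shared bases cannot be told apart without the strand setting.

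Fech, ferrochelatase, inserts iron to complete heme. Fech (ENSMUSG00000024588.8, chromosome 18, 64452914 to 64490251, minus strand) was at 25.0 TPM in replicate 1 and 26.2 in replicate 2, or 25.6 ± 0.849 (SD, n = 2). Its level lay beside that of Cpox, and the order of the 2 genes switched between libraries.

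Hmox1, the inducible heme oxygenase, was low but detected. Hmox1 (ENSMUSG00000005413.7, chromosome 8, 75093621 to 75100589, plus strand) was at 6.93 TPM in replicate 1 and 5.75 in replicate 2, or 6.34 ± 0.834 (SD, n = 2), from 557 and 426 counts. The coding Hmox1-201 held 76.1% and 94.1% of it and the retained-intron Hmox1-202 held 24.0% and 4.57%. Over coding transcripts alone the libraries were at 5.27 and 5.41. Its constitutive counterpart Hmox2 was at 13.2 and 14.8, which is 1.90-fold and 2.57-fold above Hmox1. The log2 ratio of Hmox1 to Hmox2 was -1.14 ± 0.30 (SD, n = 2), past 2-fold on the mean, and -0.93 in replicate 1 alone, short of it.

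In order of mean TPM the genes ran Alad, Alas1, Urod, Ppox, Fech, Cpox, Hmox1, Uros and Alas2. Neighbours were called different where one was higher in both libraries with separate TPM intervals in each. Alad and Alas1 did not meet this, nor did Urod and Ppox, or Fech and Cpox; the other 5 neighbouring pairs did. Over coding transcripts Urod moved below Hmox1, at 4.40 against 5.34, and Ppox came next after Alas1, which exceeded it by 1.68-fold in replicate 1 and 1.01-fold in replicate 2.

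Between the libraries most of the genes lay close together, and Alas1 was farthest apart. On TMM-scaled log2 CPM, 5 of the 9 genes were higher in replicate 1, against 50.2% of tested genes, and 4 in replicate 2, against 49.8%. In TPM the split was 3 and 6, since Ppox and Fech changed sign. On the CPM scale Alas1 was higher in replicate 1 by 1.10, or 2.15-fold. It was the 1 gene of the 9 past 2-fold with separate TPM intervals, a rule that 4.95% of the 13546 genes past the count filter met. On log2 TPM the difference was 0.99, and over coding transcripts 0.90, both short of 2-fold. Uros was higher in replicate 1 by 0.78 on CPM, or 1.71-fold, so 2 of the 9 were past 1.5-fold against 13.5% of genes tested. On log2 TPM the Uros difference was 0.61 over all transcripts, or 1.52-fold. Over coding transcripts it was 0.36, short of 1.5-fold. On CPM the other 7 ranged from -0.29 for Cpox to 0.16 for Hmox1. The median size of the difference was 0.16 over the 9 and 0.25 over all tested genes. Separate TPM intervals were found for 4 of the 9 and for 52.9% of tested genes. These are differences of 1 library from 1, with no replicate check.

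**Figure D4:**
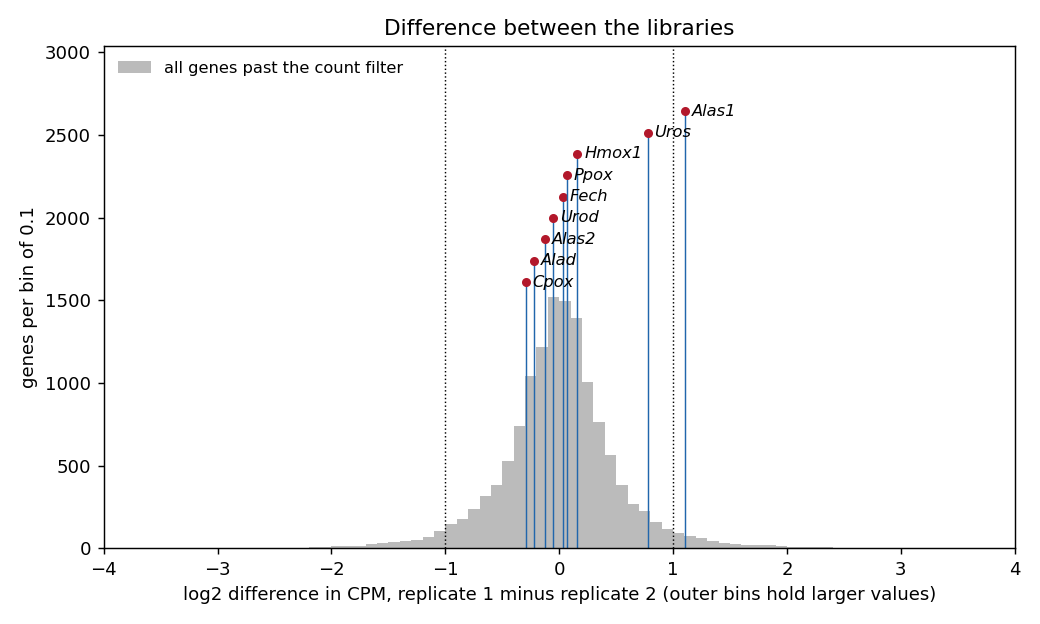
Histogram of the log2 CPM difference, replicate 1 minus replicate 2, over 13546 genes (grey, genes per bin), with each gene of the set as a red point at its own difference and dotted lines at 2-fold; the height of a point has no meaning. Alas1 at 1.10 is the only point past a dotted line, and 7 points lie between -0.29 and 0.16.

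Markers of other blood cells differed between the same libraries. All 8 granulocyte and monocyte progenitor markers were higher in replicate 1, as Alas1 was, against 50.2% of tested genes. Of these Prtn3, Elane and Ly6c2 (3 of 8) were past 2-fold there (2.42% of tested genes were past 2-fold in that direction). Lymphoid markers summed to 94.9 and 36.8, with Nkg7, Cd79a and Pax5 among those past 2-fold in the same direction. Late erythroid markers were detected for 10 of 13 and summed to 1184 and 2528, of which the 4 globin genes held 1145 and 2477 and the other 9 genes 39.8 and 50.6. Of those 9, 3 (Trim10, Epb42 and Rhag) were higher in replicate 1, while Hba-a2 and Hbb-bs, whose reads are shared with near-identical globin copies, were past 2-fold in replicate 2 (2.53% of tested genes). Early erythroid markers were detected for 8 of 8, with 2 (Klf1 and Tfrc) higher in replicate 1 on CPM and 6 in replicate 2. In TPM those 2 were higher in replicate 2 as well, Klf1 at 123.2 and 123.8 and Tfrc at 3.03 and 9.48. Megakaryocyte markers were detected for 9 of 11, with Gp6 at 0 counts. All 9 that passed the count filter were higher in replicate 2, against 49.8% of tested genes, and 0 were past 2-fold. Macrophage markers, relevant to Hmox1 because macrophages express it strongly, were detected for 5 of 12 and summed to 53.9 and 46.8. Of these Cd68 was at 37.1 and 27.9, C1qa at 3.94 and 6.14 and C1qc at 3.40 and 5.42, the last 2 near the level of Hmox1 and higher in replicate 2. Marco was at 0.01 and 0.1 and Spic at 0 and 0.12. The part of these markers in the levels of Alas1 and Hmox1 was not tested.

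Genes that bring substrates and iron to the pathway were detected throughout. Of 13 genes of cofactor transport and assembly, 13 were detected, with a median of 51.1 ± 8.07 TPM (SD, n = 2), and 0 were past 2-fold between libraries. Over all tested genes 4.95% were past 2-fold, so 0 in this list or the short lists below does not set them apart. Of all 21474 protein-coding genes 10061 were detected. The outer membrane protein gene Tspo was highest, at 424 and 291. Slc25a39, a mitochondrial carrier, was at 236 and 222, above Slc25a38, the carrier that supplies glycine for the first step, at 61.4 and 45.4 (log2 ratio -2.12 ± 0.25, SD, n = 2). The mitochondrial iron importers were at 38.1 and 42.8 for Slc25a37, the erythroid form, and 56.8 and 72.5 for Slc25a28, a log2 ratio of -0.67 ± 0.13 (SD, n = 2) that did not pass 2-fold. That ratio was -1.73 over coding transcripts, past 2-fold, and -0.03 on CPM. Snx3, which helps recycle the transferrin receptor, was at 175 and 185, and the lowest members were Fam210b at 4.96 and 5.66 and the transporter gene Abcb6 at 2.11 and 2.51.

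Precursor and iron-sulfur genes were at similar levels. For glycine and succinyl-CoA supply, 7 of 8 were detected, with a median of 55.3 ± 4.26 TPM (SD, n = 2) and 0 past 2-fold. They were led by the glycine-making enzyme gene Shmt2 at 131 and 143, with Dlst at 125 and 133 and Suclg1 at 91.3 and 78.6. Shmt1 was at 6.93 and 6.94, and Gldc, which breaks down glycine, was the undetected one at 0.03 and 0. All 8 iron-sulfur cluster genes were detected, with a median of 57.1 ± 1.11 (SD, n = 2) and 0 past 2-fold. Glrx5 led them at 215 and 239. Iscu was at 77.6 and 70.0, and Isca2 (20.6 and 17.7) and Lyrm4 (1.49 and 1.85) were lowest.

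Downstream of synthesis, the genes of heme use, binding and export were lower. Of 8, 7 were detected, with a median of 7.47 ± 0.559 TPM (SD, n = 2) and 0 past 2-fold. The heme transporter gene Slc48a1 was at 56.6 and 56.7, and Cox10, which makes heme for cytochrome oxidase, at 30.8 and 31.6. Flvcr1, long described as a heme exporter gene, was at 10.2 and 12.3, Hebp1 at 3.77 and 3.71, and Flvcr2 was at 0 TPM on 1 and 0 counts. Of the 3 other breakdown genes, all detected with 0 past 2-fold, the biliverdin reductase gene Blvrb stood out at 205 and 249, against 4.67 and 3.84 for Blvra (log2 ratio of Blvra to Blvrb -5.73 ± 0.40, SD, n = 2). Blvra, which reduces the biliverdin isomer that heme oxygenase makes, was thus below Hmox1 in both libraries, and Blvrb was above it.

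Regulators of the pathway were detected for 10 of 11 genes, with a median of 24.9 ± 1.42 TPM (SD, n = 2) and 0 past 2-fold. Klf1 at 123 and 124 and Mafk, a partner of Bach1, at 103 and 144 were highest, in an order that switched between libraries, followed by Keap1, the inhibitor of Nfe2l2, at 67.1 and 66.6. Bach1, a heme-sensing repressor of Hmox1, was at 16.8 and 22.7 and its activator Nfe2l2 at 25.9 and 23.9. Their log2 ratio was -0.35 ± 0.39 (SD, n = 2), not past 2-fold, and its sign turned to 0.41 over coding transcripts and to 1.17 on CPM. Ppargc1a, a coactivator that raises Alas1 in liver, was the undetected one, at 0 and 0.01.

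**Figure D5:**
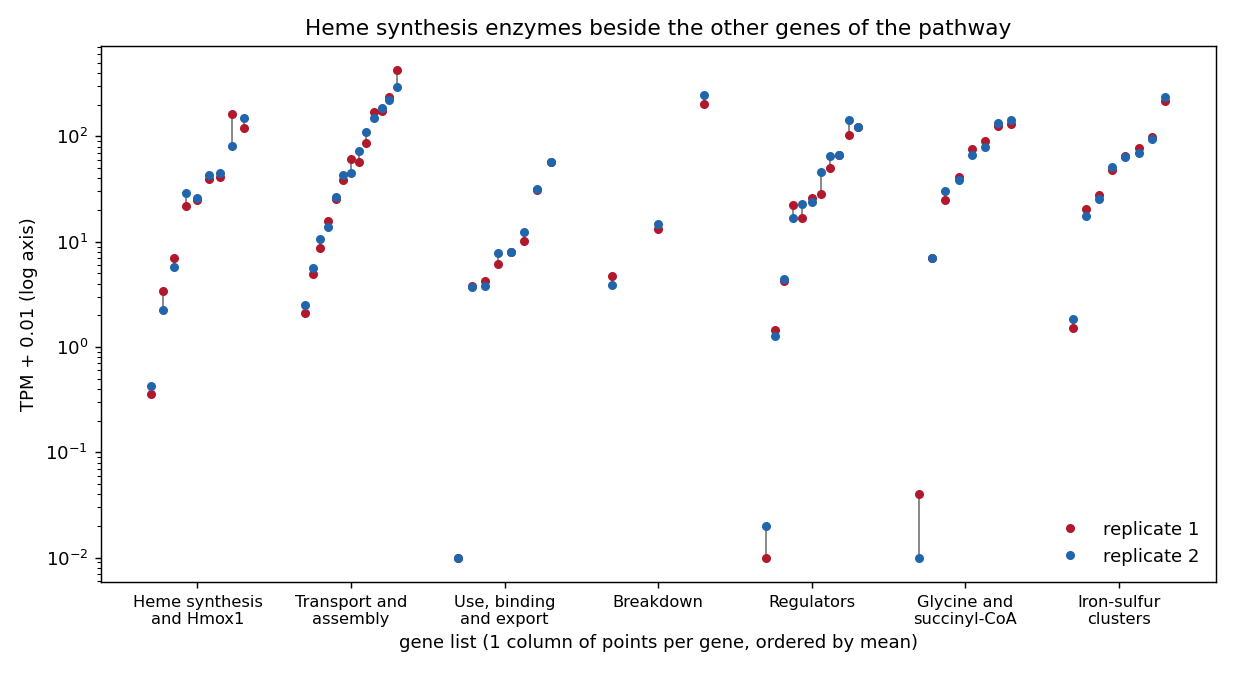
TPM + 0.01 (log axis) of the 9 genes and of the 6 pathway lists, with 1 column of points per gene, replicate 1 in red and replicate 2 in blue, joined by a grey line. Alas2 lies at the foot of the first group, and the only points lower are the undetected Flvcr2, Ppargc1a and Gldc.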

How the data were processed

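Each of the 2 libraries had a gene and a transcript table. Per the labels the assembly is mm10, and notes deposited with each sample name GENCODE M4 and list signal tracks by strand; the sources used here do not give the aligner, the quantification program or the strand setting of the tables. The tables hold, per the file headers, an expected count for every gene and transcript, in which a read may be shared among the transcripts it fits. TPM was deposited as counts over effective length scaled to a fixed library sum, and FPKM was deposited as fragments per kilobase and 1000000 fragments. Each transcript's share of its gene is a deposited percent. The TPM intervals the authors deposited belong to the posterior mean and cover quantification error within 1 library. The depth of both libraries allowed low genes to be counted, but counting intervals cover counting error only.

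Of 43346 gene identifiers 42462 matched GENCODE M21 (GRCm38) without version, which gave symbols, types and coordinates, and 884 did not. Of the 47 transcripts of the set in the tables, 46 matched, 6 of them with another length. One listed marker had no matched symbol. Expected counts were rounded, scaled by TMM and filtered with filterByExpr in edgeR 4.0.16 (R 4.3.3), with a prior count of 2 in log2 CPM, which is computed here. DESeq2 1.42.0 gave alternative size factors. Ratios of genes used a pseudocount of 0.01 TPM and were called at a mean log2 above 1 in size, with the same sign and separate TPM intervals in both libraries. The 2-fold cut, without the condition on TPM intervals, was tested on simulated counts, and the outcome is not reported here. Other steps used Python 3.11.15, numpy 2.4.6, pandas 2.3.3 and scipy 1.17.1.

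The genes and lists were chosen with earlier results of these data known. All 9 genes and the genes of the pairs are named; of each list, the rule takes the 3 highest, the 2 lowest and any past 2-fold, and transcripts with 10% of their gene's TPM in either library. Some marker genes the rule takes are covered by their list sums, and values of some listed genes are not reported here. Rhag and Trim10 lie outside the rule and were chosen after their values were seen.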

Additional observations from a re-analysis of the deposited data

How the results depend on the processing

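Of 241 recomputed values, 194 kept their direction and side of the threshold or moved by less than the spread between replicates. Leaving out 1 of 2 libraries moves a mean level or transcript share by less than their SD. Those values were therefore among the 194 by construction and show nothing about stability. Sums over protein-coding transcripts were chosen after seeing the data. They gave Alas1 39.6, Alas2 0.095, Urod 4.40, Ppox 29.0 and Hmox1 5.34 TPM, and a median of 24.1. They moved the log2 ratio of Slc25a37 to Slc25a28 to -1.73, past 2-fold, and that of Bach1 to Nfe2l2 to 0.41. Differences between libraries, here on log2 TPM and not CPM, became 0.90 for Alas1, short of 2-fold, 0.072 for Urod, -0.0675 for Fech and -0.0378 for Hmox1. Over all transcripts log2 TPM gave 0.99 for Alas1, -0.13 for Urod, -0.0675 for Fech and 0.27 for Hmox1. The Fech value was thus the same with and without the restriction to coding transcripts. In CPM, which is not divided by length, levels were Alas2 0.243, Urod 18.9, Cpox 63.0, Ppox 51.6 and Fech 58.1, with a median of 51.6, and the log2 ratio of Bach1 to Nfe2l2 was 1.17. In FPKM they were Alas2 0.315, Alad 110.5, Urod 35.2, Ppox 33.8, Fech 21.05 and Hmox1 5.21. The posterior mean of Alas2 was 0.475 TPM.

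On log2 TPM the differences were 0.99 for Alas1, -0.10 for Ppox and -0.0675 for Fech, and 0 genes were past 2-fold; at 1.5-fold 2 were. Library totals in place of TMM gave Fech -0.0255. Ranked among detected genes alone, the percentiles were Alas1 87.8, Alas2 0, Alad 88.9, Uros 13.3, Urod 71.2, Cpox 59.9, Ppox 70.5, Fech 60.2 and Hmox1 28.4. By expected counts, transcript shares were Alas1-208 17.3%, Alas2-204 41.7%, Uros-204 58.1% and Urod-209 71.3%. Leaving out 1 library gave a log2 ratio of Hmox1 to Hmox2 of -1.36 to -0.93, not called without replicate 2, and a Fech percentile of 81.4 either way. No paired analysis was possible because there was 1 group. Depth limits Alas2 most, on 18 and 17 counts. Shifts in CPM, in FPKM and in percentiles among detected genes come with a change of unit or of the genes ranked. The cause of the other shifts was not tested.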
